A study of Mus musculus with 11 samples.

Results

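The genes described here are Lin28a, Lin28b, Hmga1, Hmga2, Igf2bp1, Igf2bp2, Igf2bp3 and Arid3a, the genes around LIN28 that are linked to a fetal program of blood formation. They were chosen by symbol, and all 8 were found among the 37820 genes of the table. All 8 also passed the filter on low values that left 14708 genes for testing. No level or change in these libraries was used by that choice of symbols, although it was made with earlier results of these data known.

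RNA-seq was performed on 11 libraries from 5 populations of mouse cells on the route to the hematopoietic stem cell (HSC). Non-hemogenic endothelium (Endo, 2 libraries) and hemogenic endothelium (HE, 2 libraries), the endothelium that gives rise to blood, came from the major arteries of E10.5 embryos. Pre-HSCs (3 libraries), which must mature before they can engraft an adult, came from the same arteries. Fetal liver HSCs (FL HSCs, 2 libraries) came from E14.5 embryos, and bone marrow HSCs (BM HSCs, 2 libraries) from mice 6 to 8 weeks old. The labels give strain B6129SF1 for every library, while the study's methods give a different cross for each source. By the methods, Endo and HE came from B6C3F1 females mated to Runx1tm4Dow males, which carry a GFP reporter in the Runx1 locus. Endo was sorted as CD31+ Kit- CD45- CD41- GFP- and HE as CD31+ Kit-low CD45- CD41- GFP+. Pre-HSCs came from B6C3F1 females mated to males with a Ly6a:GFP transgene and were sorted as CD31+ CD144+ ESAM+ c-Kit+ GFP+. The label dates them to E10.5 and the methods to 1 day later. FL HSCs were Lineage- Sca1+ c-Kit+ CD150+ CD48- cells of B6C3F1 by B6129SF1 fetuses. BM HSCs of both strains were sorted as Lineage- Sca1+ c-Kit+ CD150+ CD48- CD135- cells by the methods, and a sort table of the study names absence of CD34 instead. Embryonic tissue was pooled over animals before sorting, and the GFP+ gate on arterial cells takes in HSCs beside the more numerous pre-HSCs. Endo and HE share stage, arteries and cross. In every other comparison the cross changes with the population, as do age and tissue where FL HSCs or BM HSCs are involved (and, by the methods, age between pre-HSCs and HE), and these cannot be told apart.

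The files give FPKM, fragment numbers scaled for transcript length and for the mapped fragments of the library, a level per length that can be set side by side between genes. Depth behind each value is unknown. The FPKM values of a library summed to between 569851 and 789161, and 11857 to 13080 genes reached 1 FPKM. The summed level of 10 pan-blood genes was 114 to 118 FPKM for Endo, 91.6 to 101 for HE, 415 to 725 for pre-HSCs, 1302 to 1498 for FL HSCs and 1273 to 1533 for BM HSCs. The 10 endothelial genes summed to at least 2286 FPKM in each library of Endo, HE and pre-HSCs, to 355 to 414 for FL HSCs and to 264 to 268 for BM HSCs. Pre-HSCs, which were sorted on endothelial and blood markers, held the endothelial genes at 2789 to 3139 FPKM, which overlapped the 2887 to 3213 FPKM of Endo, together with more of the blood genes than HE. Other lists differed too, and their values stand beside the results they touch.

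LIN28A and LIN28B are RNA-binding proteins that block the maturation of the let-7 microRNAs. Let-7 in turn represses messenger RNAs that pair with its seed, bases 2 to 8 of the mature RNA, and these include messengers of Lin28 itself, of the chromatin protein HMGA2 and of the IGF2BP proteins, which bind and stabilize other messengers. In mouse blood Lin28b is known for a fetal mode of hematopoiesis that gives way to an adult mode after birth, with Hmga2, Igf2bp3 and the transcription factor Arid3a among the genes linked to it. The 9 mature mouse let-7 sequences are shown first, because their common seed is what ties these messengers to the pathway. They are given as in RefSeq (GRCm38.p6), with the seed in capitals.

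let-7a: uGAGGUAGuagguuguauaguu
let-7b: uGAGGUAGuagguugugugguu
let-7c: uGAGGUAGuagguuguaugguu
let-7d: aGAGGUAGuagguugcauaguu
let-7e: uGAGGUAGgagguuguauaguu
let-7f: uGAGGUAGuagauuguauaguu
let-7g: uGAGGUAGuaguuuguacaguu
let-7i: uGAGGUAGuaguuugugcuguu
miR-98: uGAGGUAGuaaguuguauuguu

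All 9 have the seed GAGGUAG, so 1 word, CTACCTC, is its match in a messenger. That word was searched for on the transcript strand of the longest annotated 3′ UTR of each gene. Each of the 8 genes held it at least once, with 19 matches in all, of which 10 were followed by an A. In the background of 13054 tested genes with a 3′ UTR, 1367 (10.5%) held the word. At least 3 matches were found in 24 of these genes (0.184%), and Lin28b, Hmga2 and Igf2bp1, with 4 matches each, were among them. UTR length differs, so each gene was also set beside UTRs of 0.8 to 1.25 times its own length, of which 10.3% (for Hmga1) to 35.7% (for Igf2bp1) held a match. A match is a string of letters and not a measured site, and let-7 pairing was among the grounds on which such genes were known beforehand.

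One site per gene is shown with the match in capitals, preferring the first that is followed by A, which is then capitalized as well. Positions are those of mm9.
Lin28a chr4:133561103-133561125, minus strand: cacagcctgttgaaCTACCTCAt
Lin28b chr10:45100827-45100849, minus strand: cccgggcgggaagtCTACCTCAt
Hmga1 chr17:27700223-27700244, plus strand: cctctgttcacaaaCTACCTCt
Hmga2 chr10:119801279-119801301, minus strand: ccgacattcaatttCTACCTCAg
Igf2bp1 chr11:95823091-95823113, minus strand: ctgtgcgaagtaaaCTACCTCAa
Igf2bp2 chr16:22059545-22059567, minus strand: cacacaaataaaagCTACCTCAg
Igf2bp3 chr6:49036785-49036807, minus strand: gcatttttactcaaCTACCTCAg
Arid3a chr10:79416641-79416663, plus strand: aggcaagtttctttCTACCTCAg

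A total of 7 of the 8 genes had a match followed by A, and the only match of Hmga1 was not. In Lin28b and Hmga2 the shown match lay 36 and 58 bases into the UTR. That of Igf2bp1 lay 1715 bases into a UTR of 6337 bases.

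**Figure D1:**
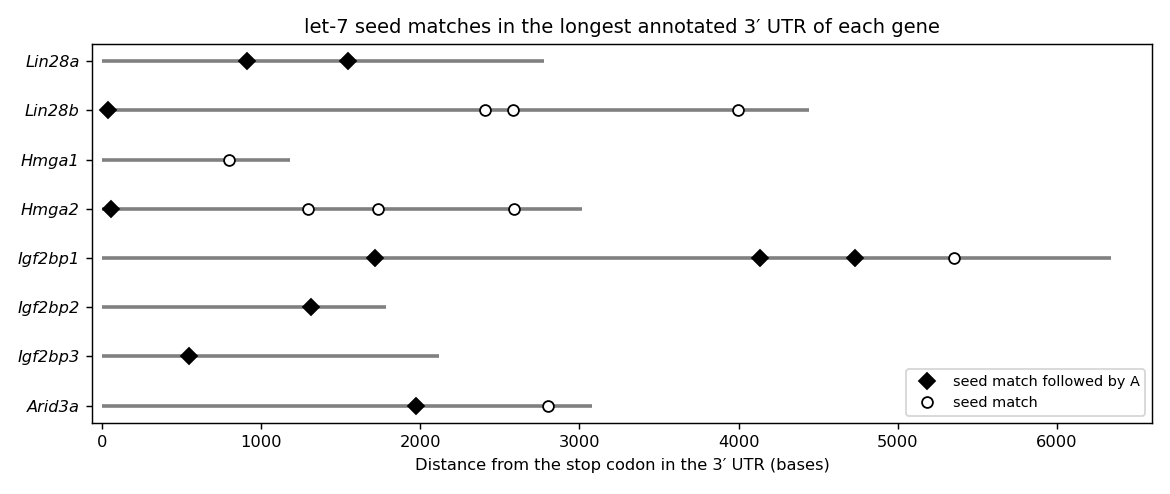
Matches to the let-7 seed along the longest annotated 3′ UTR of each of the 8 genes, with the distance from the stop codon in bases on the horizontal axis. Gray lines are the UTRs, filled diamonds are matches followed by A and open circles are the others; Lin28b, Hmga2 and Igf2bp1 have 4 matches each, and Hmga1, Igf2bp2 and Igf2bp3 have 1.

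The mature let-7 RNAs themselves were not measured. The libraries were made from poly(A)-selected RNA, and all 9 let-7 family genes in the table were listed at 0 in every library.

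Most of the 8 genes were lower in BM HSCs than in the prenatal populations. No library lies between E14.5 fetal liver and adult marrow, so when between them the levels changed was not measured. In BM HSCs 7 of the 8 genes were lower than in FL HSCs, while 4.07% of all tested genes were called lower in that comparison (10.1% were called in either direction and 5.99% higher). Fitted on the 4 libraries of BM HSCs and FL HSCs only, none of the 7 and no other gene was called in limma, with adjusted p-values of 0.0547 to 0.0831 and unadjusted ones of 7.55e-05 to 0.00424 for the 7. The median log2 fold change of the 8 genes was -2.73, and that of all tested genes was 0. Before birth few of the 8 were called. None of the 8 was called between HE and Endo, where 0.129% of genes were called, and none had an unadjusted p under 0.05 there in limma. Between pre-HSCs and HE 1 gene was called, Lin28a, which was lower (4.34% of genes were lower, 6.98% higher and 11.3% either). Between FL HSCs and pre-HSCs 1 gene was called, Hmga1, which was higher (11.1% of genes were higher, 13.9% lower and 25% either). A gene was called at a limma F-test adjusted p under 0.01, a contrast adjusted p under 0.05 and a 2-fold change or more, on log2(FPKM + 1), a scale that understates changes of low genes. Comparisons of neighboring populations share libraries, so they are not independent of each other.

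**Figure D2:**
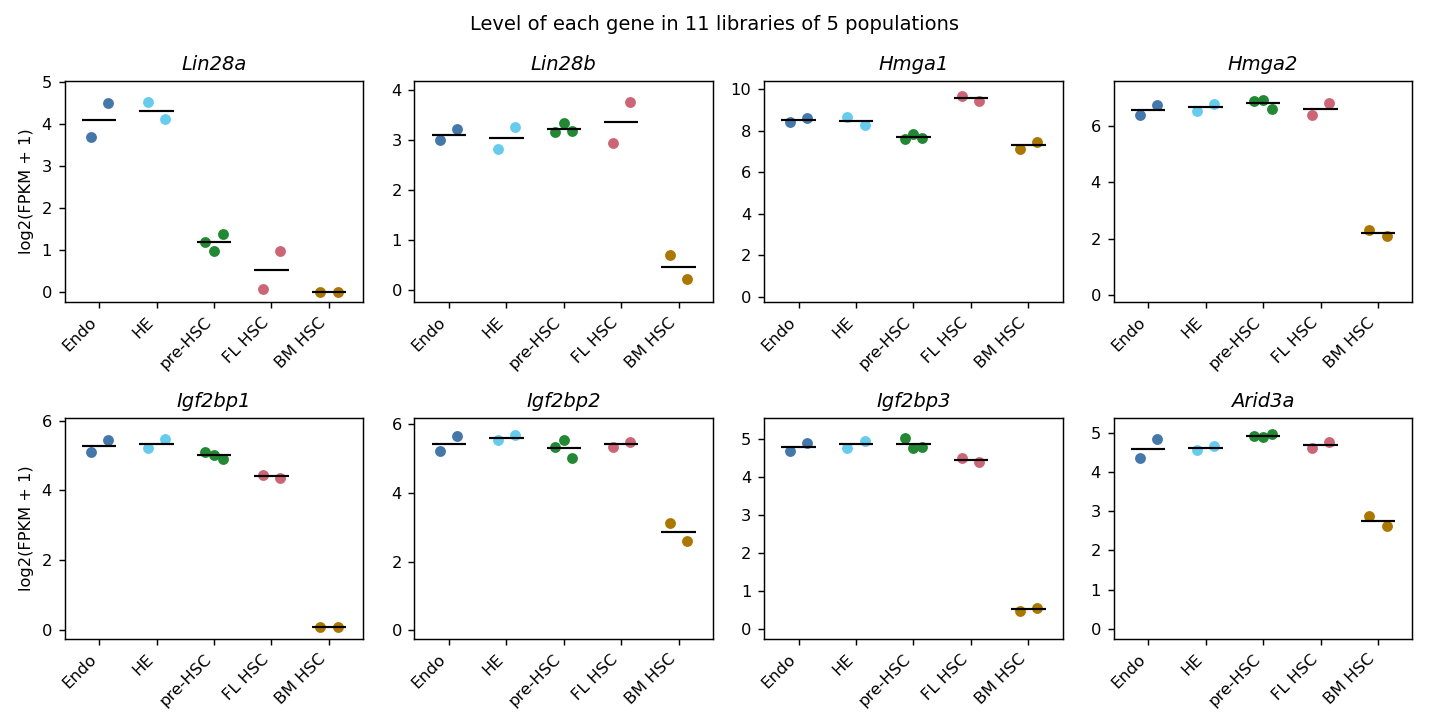
Level of each of the 8 genes, as log2(FPKM + 1) on the vertical axis, in 11 libraries of the 5 populations in order of stage. Each point is a library and each black line a population's mean on the log2 scale. In each panel the 2 BM HSC libraries lie below all 9 prenatal libraries, a gap that was not counted over all tested genes. Lin28a is already low in pre-HSCs, and Hmga1 is at its peak in FL HSCs.

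Lin28b (chromosome 10, 45096426 to 45206201, minus strand) encodes the LIN28 protein best known in fetal blood. Its level was 6.97 and 8.29 FPKM for Endo, 6.08 and 8.55 for HE, 7.90, 9.09 and 8.00 for pre-HSCs, 6.70 and 12.6 for FL HSCs, and 0.629 and 0.160 for BM HSCs. The 9 prenatal libraries differed by at most 2.07-fold, and the prenatal populations overlapped at every step of their order. Both BM HSC libraries lay below all of them. The mean in FL HSCs was 24.5 times that in BM HSCs, and the ratio ran between 10.6 and 78.8 over the pairs of libraries. On the log2(FPKM + 1) scale the change in BM HSCs against FL HSCs was -2.90 (SE 0.29, limma adjusted p = 0.000240). Such low values in BM HSCs rest on an unknown number of reads.

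Lin28a (chromosome 4, 133559245 to 133574756, minus strand) encodes the paralog first known from embryonic stem cells. Its level was 12.0 and 21.7 FPKM for Endo, 21.8 and 16.3 for HE, 1.29, 0.957 and 1.59 for pre-HSCs, and 0.0539 and 0.943 for FL HSCs, and it was listed at 0 in both BM HSC libraries. Thus Lin28a was already low in pre-HSCs and FL HSCs, while Lin28b was not. Lin28a was lower in pre-HSCs than in HE, with a change of -3.13 on the log2(FPKM + 1) scale (SE 0.32, limma adjusted p = 0.000252), and the mean in HE was 14.9 times that in pre-HSCs (10.3 to 22.8 over pairs of libraries). Lin28b changed by 0.18 (SE 0.27, adjusted p = 0.645) in the same comparison. The later steps of Lin28a did not pass the test, with -0.66 (SE 0.32, adjusted p = 0.109) in FL HSCs against pre-HSCs and -0.52 (SE 0.35, adjusted p = 0.324) in BM HSCs against FL HSCs. Against pre-HSCs BM HSCs did pass, at -1.18 (SE 0.32, adjusted p = 0.0110), and no ratio is given because BM HSCs were listed at 0. That call did not survive without either BM HSC library, at an adjusted p of 0.0505 without replicate 1 and 0.0509 without replicate 2. Without FL HSC replicate 2 the change in FL HSCs against pre-HSCs was -1.10 (adjusted p = 0.0286) and became a call.

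With these levels, the make-up of the Lin28 pair changed along the route. Lin28a made up 63.2 to 72.4% of the summed FPKM of Lin28a and Lin28b for Endo, 65.6 to 78.2% of it for HE, 9.52 to 16.5% for pre-HSCs and 0.799 to 6.96% for FL HSCs. The summed level was 18.9 to 30.0 FPKM for Endo, 24.8 to 27.9 for HE, 9.19 to 10.05 for pre-HSCs, 6.75 to 13.6 for FL HSCs and 0.160 to 0.629 for BM HSCs. The pair was thus mostly Lin28a in Endo and HE and mostly Lin28b in pre-HSCs and FL HSCs. The shares of HE and pre-HSCs did not overlap. In BM HSCs Lin28a was listed at 0 and the sum was low, so the share there is uncertain.

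Lin28a is also expressed by germ cells and pluripotent cells, so markers of these were read beside it. Between HE and Endo, 6 of 12 tested germ cell and pluripotency genes were called lower, against 0.0748% of all tested genes. The summed level of that list without Kit, a gene of the sort gates, was 29.8 to 36.7 FPKM in HE and 169 to 237 FPKM in Endo. Lin28a overlapped between the same libraries, at 16.3 to 21.8 FPKM in HE and 12.0 to 21.7 FPKM in Endo. The part of germ cells or other cells in the Lin28a level of Endo and HE was not tested. In pre-HSCs the list without Kit summed to 4.87 to 9.25 FPKM, and 4 of the 12 tested genes were lower and 1, Kit, was higher than in HE. Nanog, Dppa5a, Prdm14 and Dazl were listed at 0 in all 3 pre-HSC libraries. Of these, Prdm14 and Dazl were not tested and had means of only 0.142 and 0.0339 FPKM in HE. Pou5f1, 1 of the 4 lower genes, was at 0.0831, 0 and 4.23 FPKM in pre-HSCs and 5.80 and 5.87 FPKM in HE. A total of 7 of 8 neural and epithelial genes were also lower in pre-HSCs than in HE (summed 64.7 to 82.3 FPKM in pre-HSCs and 271 to 462 FPKM in HE), as were 6 of 10 mural and mesenchymal genes (193 to 409 FPKM in pre-HSCs and 1052 to 1072 FPKM in HE) and 5 of 10 erythroid genes (74.1 to 106 FPKM in pre-HSCs and 527 to 671 FPKM in HE). Over all tested genes 4.34% were lower and 6.98% higher in pre-HSCs than in HE. All 8 macrophage genes were higher (183 to 1117 FPKM in pre-HSCs and 6.81 to 10.4 FPKM in HE). The part of these cells in the Lin28a change was not tested. In sorted bulk cells, fewer cells that express a gene and less RNA in each cell cannot be told apart.

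Hmga2 (chromosome 10, 119798331 to 119913525, minus strand) encodes a small protein that binds AT-rich DNA in chromatin and is known in mouse for the self-renewal of fetal HSCs. It had 83.2 and 105 FPKM for Endo, 91.9 and 108 for HE, 117, 120 and 95.5 for pre-HSCs, 81.5 and 111 for FL HSCs, and 3.95 and 3.31 for BM HSCs. Hmga2 was the steadiest of the 8 before birth, with a highest prenatal library only 1.47 times the lowest. The BM HSC libraries stood far below, and the mean in FL HSCs was 26.6 times that in BM HSCs (20.6 to 33.7 over pairs of libraries). The change in BM HSCs against FL HSCs was -4.38 (SE 0.19, limma adjusted p = 1.75e-06) on the log2(FPKM + 1) scale. On the other strand 2 non-coding genes overlap Hmga2, and reads of the 2 strands cannot be told apart. One of them, 1700006J14Rik, was at 0.705 and 5.86 FPKM in BM HSCs and 12.2 and 14.6 FPKM in FL HSCs, well under Hmga2 in FL HSCs and near it in BM HSCs.

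Hmga1 (chromosome 17, 27693565 to 27700619, plus strand), its close relative in sequence and in DNA binding, was the most abundant of the 8 per length. It had 340 and 392 FPKM for Endo, 407 and 311 for HE, 191, 227 and 201 for pre-HSCs, 819 and 695 for FL HSCs, and 140 and 173 for BM HSCs. FL HSCs were above every other library and BM HSCs below. In FL HSCs the mean was 3.67 times that in pre-HSCs (3.06 to 4.30), a change of 1.87 (SE 0.17, limma adjusted p = 1.42e-05) on the log2(FPKM + 1) scale. FL HSCs were also above HE, by 1.08 (SE 0.18, adjusted p = 0.000830), and above Endo, by 1.05 (SE 0.18, adjusted p = 0.00109). In BM HSCs Hmga1 was lower than in FL HSCs, with a change of -2.27 on that scale (SE 0.18, adjusted p = 8.12e-05), and the mean in FL HSCs was 4.84 times that in BM HSCs (4.02 to 5.85). Against pre-HSCs the level in BM HSCs did not pass the test (-0.40, SE 0.17, adjusted p = 0.0698), although the libraries did not overlap. Pre-HSCs against HE gave -0.79 (SE 0.17, adjusted p = 0.00864), under the 2-fold limit. BM HSCs kept 37.1% of the mean of the 4 prenatal populations.

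By the study's methods only reads that mapped to a single place in the genome were kept. Reads that Hmga1 shares with other places would then be missing from its level. How many there were is unknown, so the level of Hmga1 is uncertain to that extent. The overlapping gene on the other strand, AI413582, was at 8.58 to 20.9 FPKM over all libraries.

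Within the HMGA pair the share of Hmga2 was 19.7 to 21.1% for Endo, 18.4 to 25.8% for HE, 32.3 to 38.0% for pre-HSCs, 9.05 to 13.8% for FL HSCs and 1.88 to 2.74% for BM HSCs. Pre-HSCs had the largest share and BM HSCs the smallest, and neither overlapped another population. In pre-HSCs Hmga2 was at 95.5 to 120 FPKM against 91.9 to 108 FPKM in HE, and Hmga1 at 191 to 227 FPKM against 311 to 407 FPKM in HE.

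The IGF2BP proteins bind messenger RNAs and protect or localize them, and Igf2 is among the messengers they were named for. Igf2bp1 (chromosome 11, 95818477 to 95867254, minus strand) had 33.3 and 42.8 FPKM for Endo, 36.2 and 43.3 for HE, 33.3, 31.6 and 28.6 for pre-HSCs, 20.7 and 19.6 for FL HSCs, and 0.0542 and 0.0692 for BM HSCs. FL HSCs were already below the other prenatal libraries. The change in FL HSCs against pre-HSCs was -0.60 (SE 0.15, limma adjusted p = 0.00818), which is under the 2-fold limit. In BM HSCs Igf2bp1 was nearly gone, at 0.191% of the prenatal mean, the smallest share among the 7 genes with a value above 0 in BM HSCs. The change against FL HSCs was -4.32 (SE 0.17, adjusted p = 1.11e-06) on the log2(FPKM + 1) scale. The mean in FL HSCs was 327 times that in BM HSCs (283 to 383), a ratio that rests on very low BM HSC values and is uncertain.

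Igf2bp3 (chromosome 6, 49035220 to 49164953, minus strand), known in mouse as an effector of fetal Lin28b in blood, had 24.4 and 28.5 FPKM for Endo, 26.2 and 29.8 for HE, 31.3, 26.3 and 26.7 for pre-HSCs, 21.6 and 20.0 for FL HSCs, and 0.405 and 0.471 for BM HSCs. FL HSCs lay slightly below the other prenatal libraries, with -0.41 (SE 0.14, adjusted p = 0.0349) against pre-HSCs, again under 2-fold. BM HSCs were lower than FL HSCs, with a change of -3.92 on the log2(FPKM + 1) scale (SE 0.16, limma adjusted p = 1.11e-06), and the mean in FL HSCs was 47.5 times that in BM HSCs (42.4 to 53.4). The gene 2410003K15Rik overlaps it on the other strand and stayed at 18.4 to 21.2 FPKM in BM HSCs against 19.5 to 33.8 FPKM in FL HSCs.

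Igf2bp2 (chromosome 16, 22059082 to 22163372, minus strand) is the family member known to stay on in adult tissues. It had 36.1 and 49.5 FPKM for Endo, 45.6 and 50.6 for HE, 39.7, 46.1 and 31.7 for pre-HSCs, 39.8 and 44.2 for FL HSCs, and 7.65 and 5.08 for BM HSCs. The prenatal populations overlapped at each step of their order. In BM HSCs the gene was lower than in FL HSCs, with a change of -2.57 on the log2(FPKM + 1) scale (SE 0.23, limma adjusted p = 0.000123), and the mean in FL HSCs was 6.60 times that in BM HSCs (5.21 to 8.70). BM HSCs thus kept 14.8% of the prenatal mean of Igf2bp2, against 1.69% for Igf2bp3.

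In BM HSCs little but Igf2bp2 was left of the family. Igf2bp2 made up 38.5 to 41.0% of the summed FPKM of the family for Endo, 40.9 to 42.2% for HE, 36.4 to 44.3% for pre-HSCs, 48.5 to 52.8% for FL HSCs and 90.4 to 94.3% for BM HSCs. The sum was 5.62 to 8.11 FPKM in BM HSCs and 82.2 to 83.7 FPKM in FL HSCs. Igf2bp1 and Igf2bp3 made up at most 1.23% and 8.38% of it in BM HSCs.

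**Figure D3:**
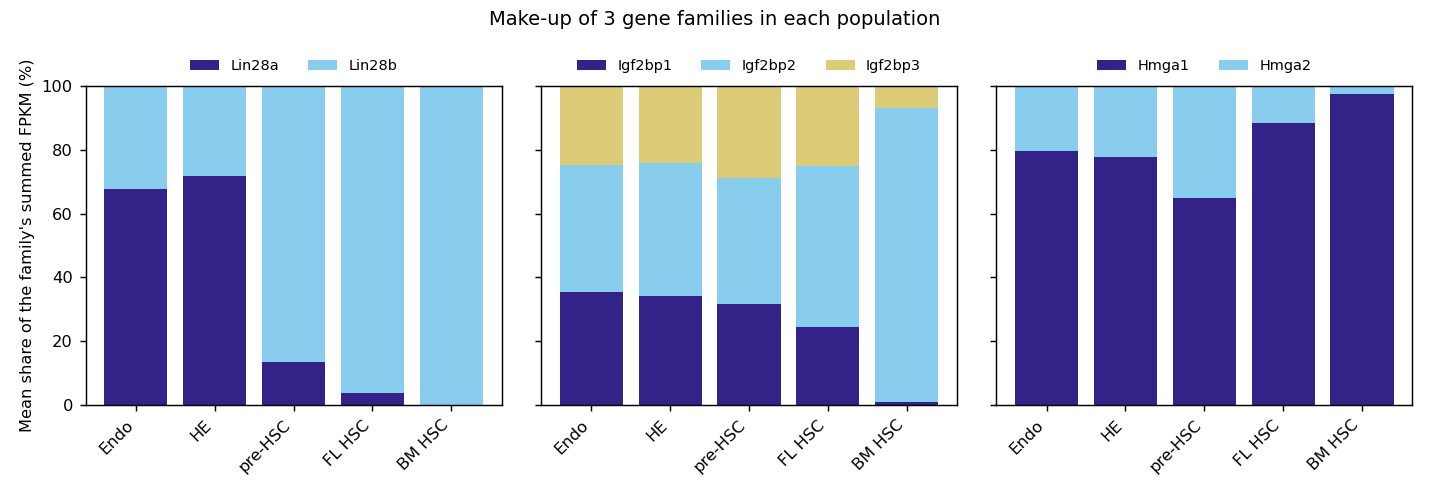
Mean share of each gene in the summed FPKM of its family, in percent on the vertical axis, for the Lin28, Igf2bp and Hmga families in the 5 populations. Bars are means over the libraries of a population. The Lin28 pair is mostly Lin28b in pre-HSCs and FL HSCs. Its BM HSC bar rests on a sum of at most 0.629 FPKM with Lin28a listed at 0. Igf2bp2 makes up a mean of 92.4% of the Igf2bp family in BM HSCs, and Hmga2 makes up a mean of 34.9% of the Hmga pair in pre-HSCs.

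Arid3a (chromosome 10, 79389788 to 79417763, plus strand) encodes a DNA-binding protein also called Bright, known for B lymphocyte development and, in mouse, as a let-7 target downstream of Lin28b. It had 19.4 and 27.4 FPKM for Endo, 22.6 and 24.5 for HE, 29.2, 28.6 and 30.1 for pre-HSCs, 23.4 and 26.0 for FL HSCs, and 6.34 and 5.16 for BM HSCs. Pre-HSCs stood above every other library, but by little, and neither HE (0.31 for pre-HSCs against HE, SE 0.16, adjusted p = 0.177) nor FL HSCs (-0.24 for FL HSCs against pre-HSCs, SE 0.16, adjusted p = 0.236) differed from them past the test. Arid3a was lower in BM HSCs than in FL HSCs, with a change of -1.93 on the log2(FPKM + 1) scale (SE 0.18, limma adjusted p = 0.000137). The mean in FL HSCs was 4.29 times that in BM HSCs (3.69 to 5.03), and BM HSCs kept 22.8% of the prenatal mean.

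**Figure D4:**
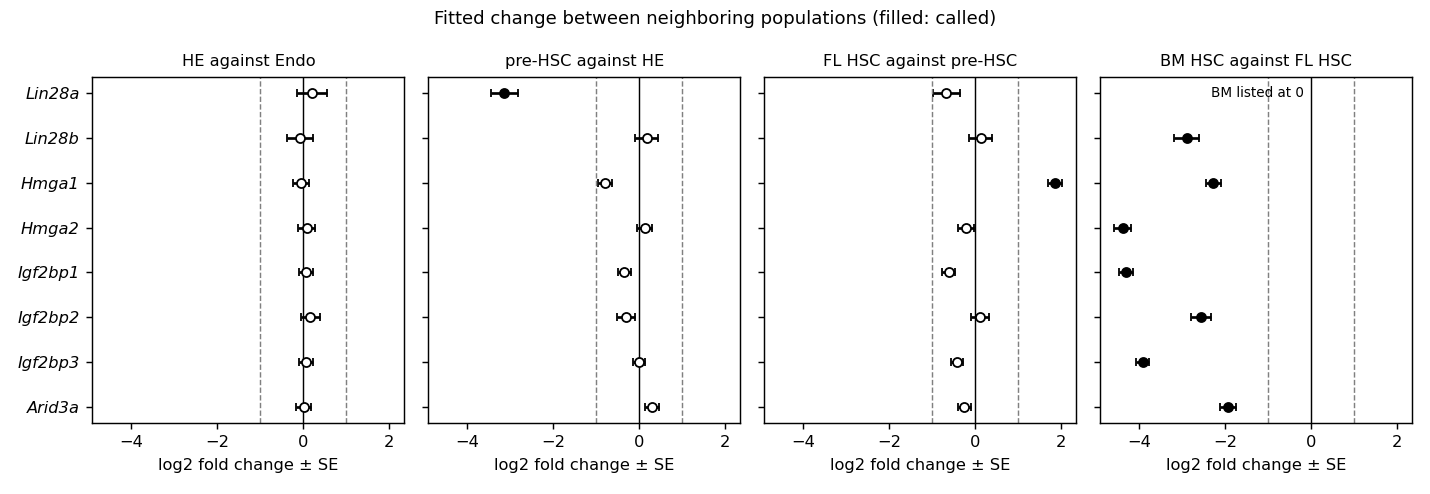
Fitted log2 fold change of log2(FPKM + 1) with its standard error (bars) for each gene in the 4 comparisons of neighboring populations, the later population over the earlier one. Filled points were called and dashed lines mark a 2-fold change; 7 filled points lie below 0 in BM HSCs against FL HSCs, Lin28a is without a point there because BM HSCs were listed at 0, and the only other called points are Lin28a in pre-HSCs and Hmga1 in FL HSCs.

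The level left in BM HSCs varied among the 8 genes. As a share of the mean of the 4 prenatal populations, BM HSCs held 0.191% of Igf2bp1, 1.69% of Igf2bp3, 3.62% of Hmga2, 4.79% of Lin28b, 14.8% of Igf2bp2, 22.8% of Arid3a and 37.1% of Hmga1, and Lin28a was listed at 0. For each of the 8 genes both BM HSC libraries lay below all 9 prenatal libraries. How many of all tested genes did so was not counted. Against that mean of log values all 8 were called lower, where 12% of all tested genes were, with changes between -4.92 for Igf2bp1 and -1.27 for Hmga1. Against pre-HSCs alone 7 were lower (14.5% of all genes were), the exception being Hmga1. Lin28a was already low in pre-HSCs and FL HSCs. Its change in BM HSCs was -4.10 against Endo and -4.31 against HE, but -0.52 against FL HSCs (limma adjusted p = 0.324, not called). Its call against pre-HSCs was lost with quantile normalization, with no filter and with a stricter p.

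Other measures also differed between BM HSCs and FL HSCs, where 4.07% of all tested genes were called lower and 5.99% higher. Of 12 cell cycle genes 4 were called lower in BM HSCs, with a summed level of 877 to 940 FPKM in BM HSCs and 1361 to 1646 FPKM in FL HSCs. Cdk1 (-0.999, limma adjusted p = 0.0221), Mcm5 (-0.94, 0.00601), Ccnb2 (-0.94, 0.00391) and Mcm2 (-0.83, 0.00487) passed the adjusted p but changed less than 2-fold. The rest of the list did not pass it. Of 10 erythroid genes 9 were lower, at 54.4 to 123 FPKM in BM HSCs and 249 to 369 FPKM in FL HSCs, with Alas2 listed at 0 in BM HSCs. Of 8 macrophage genes 4 were lower, at 4.604 to 6.96 FPKM in BM HSCs and 40.8 to 264 FPKM in FL HSCs. Of 5 tested hepatocyte genes 2 were lower, Alb and Apoa1, with the list of 8 at 9.35 to 13.1 FPKM in BM HSCs and 13.1 to 39.3 FPKM in FL HSCs. The other 3 were not called, and 1 of them, Hnf4a, had a mean of 7.99 FPKM in BM HSCs and 6.42 FPKM in FL HSCs. The part of these cell cycle, erythroid, macrophage and hepatocyte genes in the changes of the 8 was not tested.

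Other genes of the pathway were read from fixed lists, whose counts in BM HSCs against FL HSCs stand beside 4.07% of all tested genes called lower and 5.99% called higher. The 15 genes of let-7 processing, from the nucleases that cut the precursors to the Argonaute proteins that hold the mature RNA and the enzymes that add a tail to let-7 precursors, had a median change of 0.03 in BM HSCs against FL HSCs (0 over all tested genes). One of 15, Eif2c4, an Argonaute gene, was higher in BM HSCs (3.35 ± 0.74 FPKM in BM HSCs and 1.07 ± 0.25 FPKM in FL HSCs, SD, n = 2 each; log2 fold change 1.07, SE 0.21, limma adjusted p = 0.00715), and none was lower (at an unadjusted p under 0.05 in limma, 3 were higher and 4 lower). In FL HSCs against pre-HSCs 1 of the 15 was higher (Khsrp) and 1 lower (Papd4), both named after their values were seen. Over all tested genes 11.1% were higher and 13.9% lower in that comparison, so these counts do not exceed the shares of all genes.

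Of 18 tested genes on a list of other let-7 targets, 3 were lower in BM HSCs than in FL HSCs and none was higher, with a median of -0.37 (at an unadjusted p under 0.05 in limma, 2 were higher and 7 lower). They were Rrm2, a subunit of ribonucleotide reductase (27.8 ± 1.4 FPKM in BM HSCs and 82.1 ± 9.1 FPKM in FL HSCs, SD, n = 2 each, here and for the genes that follow; log2 fold change -1.52, SE 0.14, limma adjusted p = 0.000123), E2f2, a cell cycle transcription factor (3.66 ± 0.18 FPKM in BM HSCs and 9.07 ± 0.70 FPKM in FL HSCs, -1.11, SE 0.19, adjusted p = 0.00352), and Cdc25a, a phosphatase that drives the cell cycle (18.9 ± 2.2 FPKM in BM HSCs and 40.9 ± 2.4 FPKM in FL HSCs, -1.08, SE 0.15, adjusted p = 0.00120). All 3 act in proliferation. In FL HSCs against pre-HSCs 6 of the 18 were higher and 2 lower, where 11.1% of all tested genes were higher and 13.9% lower, with a median of 0.48 (0.11 over all tested genes).

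The IGF pathway list is described because the IGF2BP proteins act on its ligand. Of 12 genes 3 were lower in BM HSCs than in FL HSCs and none was higher (median -0.13; at an unadjusted p under 0.05 in limma, 0 were higher and 4 lower). The growth factor Igf2 was at 2.23 ± 0.49 FPKM in BM HSCs and 72.8 ± 23.0 FPKM in FL HSCs (log2 fold change -4.48, SE 0.21, limma adjusted p = 1.89e-06). H19, the non-coding RNA beside it, was at 6.11 ± 0.68 FPKM in BM HSCs and 525 ± 109 FPKM in FL HSCs (-6.20, SE 0.19, adjusted p = 2.77e-07). Igf1 was at 1.77 ± 0.38 FPKM in BM HSCs and 11.6 ± 5.7 FPKM in FL HSCs (-2.11, SE 0.28, adjusted p = 0.00105). In FL HSCs against pre-HSCs 3 of the 12 were called higher and 4 lower, where 11.1% of all genes were higher and 13.9% lower. Among the lower ones, Igf2 changed by -4.43 (SE 0.19) and H19 by -2.89 (SE 0.18). At the same step Igf2bp1 changed by -0.60, Igf2bp2 by 0.11 and Igf2bp3 by -0.41, and the difference between these genes was not tested.

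Of 8 tested relatives of these families, none was called in BM HSCs against FL HSCs (median -0.61). They take in Arid3b and the HMGB and HMGN chromatin proteins. In limma 7 had an unadjusted p under 0.05, each with a lower level in BM HSCs, and that share was not counted over all genes. Ybx1 (-0.86, limma adjusted p = 0.00592), Hmgn1 (-0.75, 0.00738), Hmgn2 (-0.77, 0.00802) and Hmgb2 (-0.67, 0.0183) passed the adjusted p but changed less than 2-fold. The others did not pass it. Arid3b and Hmgn1 were called lower in BM HSCs than in pre-HSCs, where 14.5% of all tested genes were lower. The genes named here were picked after their values were seen.

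The genes with the most similar course were found by Pearson's r of log2(FPKM + 1) over the 11 libraries, among tested genes whose highest population mean was 10 FPKM or more. The points share libraries, and for a gene that was level before birth a high r rests mainly on the gap between BM HSCs and the rest. For 6 of the 8 genes, at least 1 of the 3 closest genes was another of the 8. No such count was made for other genes that were low in BM HSCs. Hmga2 was closest to Igf2bp3 (r = 0.99), Arid3a (0.99) and Igf2bp2 (0.98), and Igf2bp1 and Igf2bp3 were closest to each other (0.99). Lin28b was closest to Hmga2 (0.98), followed by the condensin subunit Ncaph (0.98) and Arid3a (0.97). Outside the set, Igf2bp1 and Igf2bp3 were both close to St3gal5, a sialyltransferase (0.99 each). That gene had a mean of 33.0 FPKM for Endo, 37.4 for HE, 29.0 for pre-HSCs, 28.2 for FL HSCs and 4.64 for BM HSCs. Igf2bp1 was also close to Skp2, a ubiquitin ligase subunit (0.99), Igf2bp2 to Rrm2 (0.98) and to Gga2, a trafficking adaptor (0.98), and Arid3a to the mitotic kinesin Kif20a (0.97).

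Lin28a and Hmga1 had other neighbors. Lin28a was closest to Aacs, an acetoacetyl-CoA synthetase (r = 0.98), Arg1, an arginase (0.98), and Creld2, a protein of the endoplasmic reticulum (0.98). Arg1 followed the same course at a like level, with means of 12.0 FPKM for Endo, 15.1 for HE, 1.501 for pre-HSCs and 0.478 for FL HSCs, and it was listed at 0 for BM HSCs. Hmga1 was closest to Add2, a membrane skeleton protein of red cells and neurons (0.98), Uhrf1, which maintains DNA methylation (0.96), and Gm10143 (0.96). Add2 had a mean of 6.66 FPKM for Endo, 6.51 for HE, 2.29 for pre-HSCs, 28.2 for FL HSCs and 1.195 for BM HSCs. For Hmga1 and for Add2 the mean of FL HSCs was the highest of the 5 populations and that of BM HSCs the lowest. In addition, 6 of 10 erythroid genes were higher in FL HSCs than in pre-HSCs (249 to 369 FPKM in FL HSCs and 74.1 to 106 FPKM in pre-HSCs) and 10 of 10 endothelial genes were lower. Over all tested genes 11.1% were higher and 13.9% lower in FL HSCs than in pre-HSCs. Of the other lists, 7 of 10 pan-blood, 2 of 12 cell cycle and 2 of 5 hepatocyte genes (Alb and Hnf4a) were higher. Lower were 9 of 10 mural and mesenchymal, 5 of 8 neural and epithelial and 4 of 8 macrophage genes. Their part in the Hmga1 change was not tested. Lin28a against Lin28b gave r = 0.44 and Lin28a against Hmga1 gave r = 0.23.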

How the data were processed

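RNA-seq was done by the authors on 11 libraries of 5 sorted populations (3 libraries for pre-HSCs, 2 for each of the others). Per the labels and methods, RNA was poly(A)-selected and libraries were made with NEBNext Ultra. The submitters' processing notes name TopHat, Cufflinks, featureCounts, Subread and edgeR without versions, and mm9. The authors deposited FPKM values per gene and library. The tool behind these values was not named in the sources used here. FPKM divides by length and by each library's total, so it keeps no depth, and a high gene can lower the others. No count test was run.

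Of 37820 gene IDs, 37038 (97.9%) matched GENCODE M1 on mm9, which gave symbols, positions and 3′ UTRs. Let-7 sequences came from RefSeq (GRCm38.p6). Log2(FPKM + 1) of 14708 genes with at least 1 FPKM in at least 2 libraries was fitted with limma 3.58.1 (R 4.3.3, trend), using every library and 1 term per population. Adjusted p-values are Benjamini-Hochberg over all genes tested. Calls needed an F-test adjusted p under 0.01, a contrast adjusted p under 0.05 and 2-fold. The fit and the search for similar genes were tested on simulated data. Replicates are called biological by the study, and where libraries came from separate animals is not given for each, so p-values measure the spread between these libraries. An exact 0 can be a failed estimate (Prpf8, used by every cell, is listed at 0 in pre-HSC replicate 3).

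The genes and gene lists were chosen with earlier results of these data known. Named genes are the 8, for each the 3 genes of highest Pearson r with a highest population mean of at least 10 FPKM, and per list up to 5 genes called in BM HSCs against FL HSCs. Alternatives were pseudocounts of 0.1 and 0.5, no filter, equal totals, quantile normalization, no trend, no F-test step, a stricter p, only the populations compared, a replicate block and each library left out. Plots were drawn with matplotlib 3.10.9 and tables made with pandas 2.3.3 and numpy 2.4.6 (Python 3.11.15). Values of some related genes are not reported here.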

Additional observations from a re-analysis of the deposited data

How the results depend on the processing

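No call of the 8 genes reversed, and 987 of 1000 values for single genes under the alternatives stayed on the same side of the call, with 12 weaker and 1 stronger. Fitted on the 4 libraries of BM HSCs and FL HSCs only, 0 of the 8 genes and 0 of all genes were called in limma, where the 7 had adjusted p-values of 0.0547 to 0.0831 and unadjusted ones of 7.55e-05 to 0.00424. By construction that fit has fewer libraries to estimate the spread. In FL HSCs against pre-HSCs 2 genes were called without FL HSC replicate 2, with Lin28a added to Hmga1, and leaving out other libraries gave 1. Leaving out a library gave 7 in BM HSCs against FL HSCs each time and 6 or 7 in BM HSCs against pre-HSCs, where 6 were also called with no filter, with quantile normalization and with a stricter p, Lin28a being lost. With the replicate block 7, 7, 8, 1, 0 and 1 genes were called in BM HSCs against FL HSCs, against pre-HSCs and against the prenatal mean, and in pre-HSCs against HE, HE against Endo and FL HSCs against pre-HSCs, as without it. Deviations of libraries with the same number correlated at -0.155 to 0.156 between populations, so the numbers were not taken as pairs. Equal totals moved the median change of all genes by 0.13 in pre-HSCs against HE and by -0.20 in FL HSCs against pre-HSCs; relative to that median, Lin28a then changed by -3.26 in the first and Hmga1 by 1.71 in the second. The fit on only the populations compared does not apply to the prenatal mean, which uses all libraries. FPKM alone sets no limit of detection for the low values in BM HSCs.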
